A study of Rattus norvegicus with 3 samples.

Results

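TMC2 is the name the submitters gave to 1 of 16 clusters of cells in a library of rat thymic stroma. Its members were taken as every annotated cell with that cluster name, which gave 3080 of 13226 annotated cells, or 23.3% (exact Clopper-Pearson interval 22.6 to 24.0%). The cells held 26685773 unique molecular identifiers (UMIs, each standing for 1 captured RNA molecule). A cell had from 785 to 26544 UMIs, with a median of 8269.5 and a median of 3129 genes. The names TMC1, TMC2, TMC3, TMC4 and capFb are not spelled out in the sources used here. These 5 clusters are treated below as mesenchymal types, since Pdgfra was at 290.4 CPM or more in each of them (CPM, UMIs of the gene per 1000000 UMIs summed over the cells of a type).

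The study profiled the thymus of rats of the inbred Lewis strain at 8 weeks of age, with no treatment or genetic change named in the labels. Stroma was freed with Liberase TH and DNase I, enriched for cells without CD45, the surface protein of blood-derived cells, by magnetic and then flow sorting, and sequenced with 10x droplets. A thymocyte library and a 10 µm tissue section measured by Stereo-seq, in which RNA is captured on a patterned chip, completed the series. Each of the 3 data sets was 1 sample, so no difference below has a replicate check and none was tested. Intervals are at 95% and cover counting error only.

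Mesenchymal cells wrap the thymus in a capsule, enter it along septa and vessels, and lay down its matrix. They also release growth factors, among them bone morphogenetic proteins (BMPs) and fibroblast growth factors (FGFs), that act on the thymic epithelium, and retinoids and chemokines. BMP4 is a secreted ligand of this kind, MASP1 is a serine protease of the lectin branch of complement, and PDGFRA is the receptor for platelet-derived growth factors found on most fibroblasts.

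The stretches of genome in front of the 3 label genes and of Cxcl14, a chemokine gene that separated TMC2 from its neighbours by a wide margin, are shown because these genes are the base of the description that follows. All 4 matched the RefSeq promoter table by symbol. Each stretch covers the 250 bases that precede the annotated gene start in build GRCr8, printed 5′ to 3′ on the strand of the gene. Masp1 lies at chr11:90839472-90839721 on the plus strand, Bmp4 at chr15:22101934-22102183 on the minus strand, Pdgfra at chr14:33408517-33408766 on the minus strand and Cxcl14 at chr17:8322900-8323149 on the plus strand. Capitals mark matches to 5 short motifs searched on both strands.
Masp1: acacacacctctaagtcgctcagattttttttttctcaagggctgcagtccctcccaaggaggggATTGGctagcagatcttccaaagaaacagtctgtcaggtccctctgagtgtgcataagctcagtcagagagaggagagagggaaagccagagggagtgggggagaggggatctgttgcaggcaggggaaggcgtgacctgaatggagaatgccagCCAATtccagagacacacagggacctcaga
Bmp4: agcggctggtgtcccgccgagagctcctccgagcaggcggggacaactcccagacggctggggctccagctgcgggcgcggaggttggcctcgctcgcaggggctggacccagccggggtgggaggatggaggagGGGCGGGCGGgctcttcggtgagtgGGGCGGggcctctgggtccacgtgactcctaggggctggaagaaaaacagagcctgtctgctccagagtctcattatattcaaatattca
Pdgfra: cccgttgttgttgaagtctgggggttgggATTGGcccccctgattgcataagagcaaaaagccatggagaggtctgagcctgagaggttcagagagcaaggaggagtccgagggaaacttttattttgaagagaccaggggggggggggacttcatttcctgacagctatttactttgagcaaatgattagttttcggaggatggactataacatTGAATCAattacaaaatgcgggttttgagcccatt
Cxcl14: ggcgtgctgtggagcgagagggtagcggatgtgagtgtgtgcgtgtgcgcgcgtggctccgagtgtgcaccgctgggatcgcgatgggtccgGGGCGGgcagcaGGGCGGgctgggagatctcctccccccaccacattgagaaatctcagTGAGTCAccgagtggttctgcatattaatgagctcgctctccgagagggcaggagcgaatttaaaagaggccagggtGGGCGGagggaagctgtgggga

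The motifs were the TATA box (TATAAA), the core of the box bound by NF-Y (CCAAT), the box bound by Sp1 (GGGCGG), the site of AP-1 factors (TGANTCA) and that of TCF/LEF factors (CTTTGAT). The Masp1 stretch held CCAAT at 2 places, and the Bmp4 stretch held GGGCGG at 3 places, of which the first pair overlapped. Pdgfra had 1 CCAAT and 1 TGANTCA. Cxcl14 had GGGCGG at 3 places and 1 TGANTCA. No motif was present in all 4 stretches. Among 33469 stretches of this length in the table, 34.02% held CCAAT, 30.5% held GGGCGG, 12.9% held TATAAA, 6.34% held TGANTCA and 3.15% held CTTTGAT. A match is a description of these letters and not a binding site.

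The label markers were checked first. Masp1 was at 191 CPM in TMC2 (186 to 196), 35.6 in TMC1, 32.0 in TMC3, 35.9 in TMC4 and 8.72 in capFb. TMC2 was thus the one mesenchymal type with a high level, 5.31 times the next (4.81 to 5.87). Bmp4 was at 292 CPM in TMC2, 159 in TMC1, 84.3 in TMC3, 68.2 in capFb and 36.2 in TMC4, which put TMC1 at an intermediate level and TMC2 1.83 times above it (1.75 to 1.92). Pdgfra was at 589 CPM in TMC2 (580.1 to 599), 539 in TMC1 (527 to 552), 402 in TMC3, 310 in capFb and 290.4 in TMC4. Pdgfra therefore marks all 5 types and hardly parts TMC2 from TMC1, at a ratio of 1.09. Across all 16 clusters, TMC2 ranked first for each of the 3 genes. Outside the mesenchyme the highest level of Masp1 was 49.1 CPM in the epithelial cluster TEC-c. That cluster was also first there for Bmp4 at 113 CPM and for Pdgfra at 217 CPM. Doublets were not removed, and their part in these levels was not tested. Which genes entered the authors' clustering is not given in the sources used here. Genes of the clustered cells are therefore taken as used, and levels describe the cluster with no independent evidence for it.

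**Figure D1:**
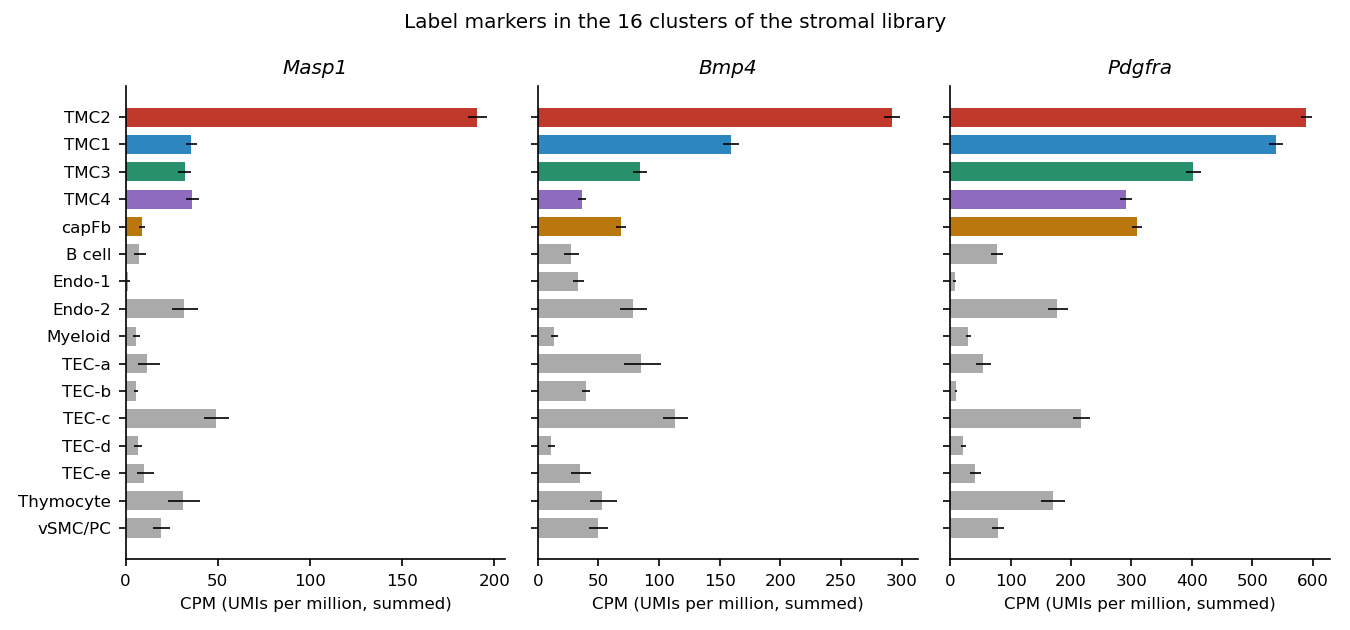
CPM of Masp1, Bmp4 and Pdgfra (horizontal axes) in the 16 clusters of the stromal library (vertical axis), with bars for summed levels and lines for exact 95% Poisson intervals. TMC2 is the longest bar in each panel, alone for Masp1 at 191 CPM and next to TMC1 for Pdgfra at 589 against 539 CPM.

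At the level of single cells, Masp1 had a UMI in 55.9% of TMC2 cells, Bmp4 in 75.6% and Pdgfra in 96.6%. The thymocyte cluster of the same library, which should lack these genes, had a UMI of them in 4.14%, 9.49% and 15.3% of its 411 cells, at a median of 2648 UMIs. Of the 53 Masp1 UMIs in that cluster, 52 lay in 16 cells that carried all 3 genes, and the median depth of those cells was 12742 UMIs. To remove the difference in depth, each cell was thinned to 2000 UMIs, which left out 11 TMC2 and 117 thymocyte-cluster cells. The shares in TMC2 were then 25.5% for Masp1 (24.0 to 27.1), 39.2% for Bmp4 and 67.5% for Pdgfra, against 2.38%, 2.72% and 10.9% in the thymocyte cluster. At that depth Masp1 had a UMI in 5.47% of TMC1, 4.13% of TMC3, 5.73% of TMC4 and 1.11% of capFb cells, none of whose intervals reached that of TMC2. All 3 genes occurred together in 44.2% of TMC2 cells at their own depth and in 13.4% of TMC1, 8.25% of TMC3, 4.96% of TMC4 and 2.65% of capFb cells. Thinned to 2000 UMIs, these shares were 6.81%, 1.39%, 0.18%, 0.081% and 0.147% in the same order. At least 1 of the 3 was present in 99.4% of TMC2 cells at their own depth.

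To place TMC2 among its neighbours, genes with a mean of at least 5 CPM over the 5 types were compared, 11072 in all. A gene was called higher when TMC2 was at least 1.5-fold above each of the 4 other types, and lower when it was at least 1.5-fold below each. By this rule 133 genes (1.2%) were higher and 112 (1.01%) were lower. The lead was small for most of them, with a median of 1.81-fold, and 48 of the 133 reached 2-fold. The next type was TMC1 for 87 of the 133 higher genes and TMC3 for 39, against 4 for capFb and 3 for TMC4. Just inside the threshold were Cyp39a1 and Fndc4, both at 1.503-fold, and just outside it were Slc2a4 at 1.499 and Lgr5 at 1.498. Over all 16 clusters, TMC2 had the highest level for 79 of the 133 genes, and an epithelial cluster had it for 29.

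Pair by pair, at a 2-fold threshold, TMC2 differed least from TMC1. Against TMC1, 240 genes (2.17%) were higher in TMC2 and 329 (2.97%) lower. Against TMC3, 329 (2.97%) were higher and 749 (6.76%) lower. Most differences separated TMC2 from TMC4, with 952 higher (8.6%) and 1123 lower (10.1%), and from capFb, with 1146 higher (10.4%) and 640 lower (5.78%).

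The 10 genes with the largest lead included enzymes, ErbB ligands and surface proteins. Cyp2e1, a cytochrome P450 that oxidises ethanol and other small molecules, was at 62.2 CPM in TMC2, 9.47 in TMC3, 6.48 in TMC1, 2.04 in capFb and 1.21 in TMC4, a lead of 6.57-fold (5.37 to 8.04). Nrg3, which encodes a neuregulin that binds ErbB receptors, was at 29.8 CPM against 4.63 in TMC1, 3.41 in TMC3, 0.681 in capFb and 0.346 in TMC4. Both genes were sparse even in TMC2, with a UMI in 18.9% of its cells for Cyp2e1 and 8.99% for Nrg3, against 1.22% and 0.73% in the thymocyte cluster. These shares, and later ones set against that cluster, are at the cells' own depth. The median depth was 8269.5 UMIs in TMC2 and 2648 in the thymocyte cluster, so part of each gap can be depth. Neither was highest in TMC2 over the whole library, since Cyp2e1 was at 93.6 CPM in TEC-b and Nrg3 at 84.7 in TEC-e. A second neuregulin gene, Nrg1, led by 3.32-fold at 22.3 CPM, but was at 1011 CPM in TEC-b. The lead of Nrg1 was 2.21-fold when the CPM of cells were averaged and 1.61-fold when each cell was thinned to 2000 UMIs.

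Pappa, a metalloprotease that cuts binding proteins of insulin-like growth factors, was at 164 CPM in TMC2, 41.5 in TMC3, 37.3 in TMC1, 8.91 in TMC4 and 7.49 in capFb. Ddit4l, an inhibitor of mTORC1 signalling, was at 75.4 CPM against 17.2 in TMC1 and 16.9 in TMC3, a lead of 4.39-fold. In both genes TMC1 and TMC3 had similar intermediate levels and TMC4 and capFb the lowest. Gria1, an AMPA-type glutamate receptor subunit, led by 5.19-fold at 22.6 CPM. Chodl, a membrane lectin, led by 3.88-fold at 31.8 CPM, and Rnf152, a ubiquitin ligase of the lysosome, by 3.90-fold at 19.2 CPM. Rnf152 was at 65.7 CPM in TEC-e, and its lead was 2.61-fold when each cell was thinned to 2000 UMIs. Nrg3 and Gria1 are long genes, and whether reads in introns were counted is not given in the sources used here.

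Cxcl14 stood out by its amount of RNA as well as by its lead. It was at 3132 CPM in TMC2, 864 in TMC1, 862 in TMC3, 137 in TMC4 and 90.6 in capFb, a lead of 3.62-fold (3.55 to 3.69). At the cells' own depth, a UMI was present in 95.1% of TMC2 cells, against 15.3% in the shallower thymocyte cluster. The median TMC2 cell had 18 UMIs, with a highest value of 261. The promoter stretch of this gene is printed above with its 3 GGGCGG matches.

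The 10 genes with the lowest relative level in TMC2 were adhesion, signalling and lipid genes, among others. Adgrg2, an adhesion G protein-coupled receptor, was at 0.225 CPM on 6 UMIs, against 2.71 in TMC1, 5.302 in TMC3, 36.9 in TMC4 and 43.8 in capFb. Pamr1 was at 0.375 CPM on 10 UMIs, 12.1-fold below the lowest other type (6.14 to 24.0). Cdh13, which encodes T-cadherin, was at 1.39 CPM against 11.7 in TMC1 and 41.8 in TMC4. TMC4 and capFb had the highest levels of all 3. Has2, which makes hyaluronan, was at 9.59 CPM in TMC2 and 30.1 in TMC1, 35.3 in TMC3, 73.6 in TMC4 and 71.4 in capFb. Lims2, Zbtb7c, Fabp5, Plppr5, Pm20d1 and Cryab completed the group, with levels from 0.637 to 3.04 CPM in TMC2 and from 3.53-fold to 4.56-fold below the lowest other type. With cells thinned to 2000 UMIs, Adgrg2 was 5.97-fold in place of 12.0-fold below the lowest other type, Pamr1 7.35-fold, Pm20d1 5.97-fold in place of 3.80-fold, Cdh13 4.997-fold in place of 8.43-fold, Lims2 2.24-fold, Cryab 6.20-fold, Fabp5 6.35-fold and Zbtb7c 2.75-fold.

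**Figure D2:**
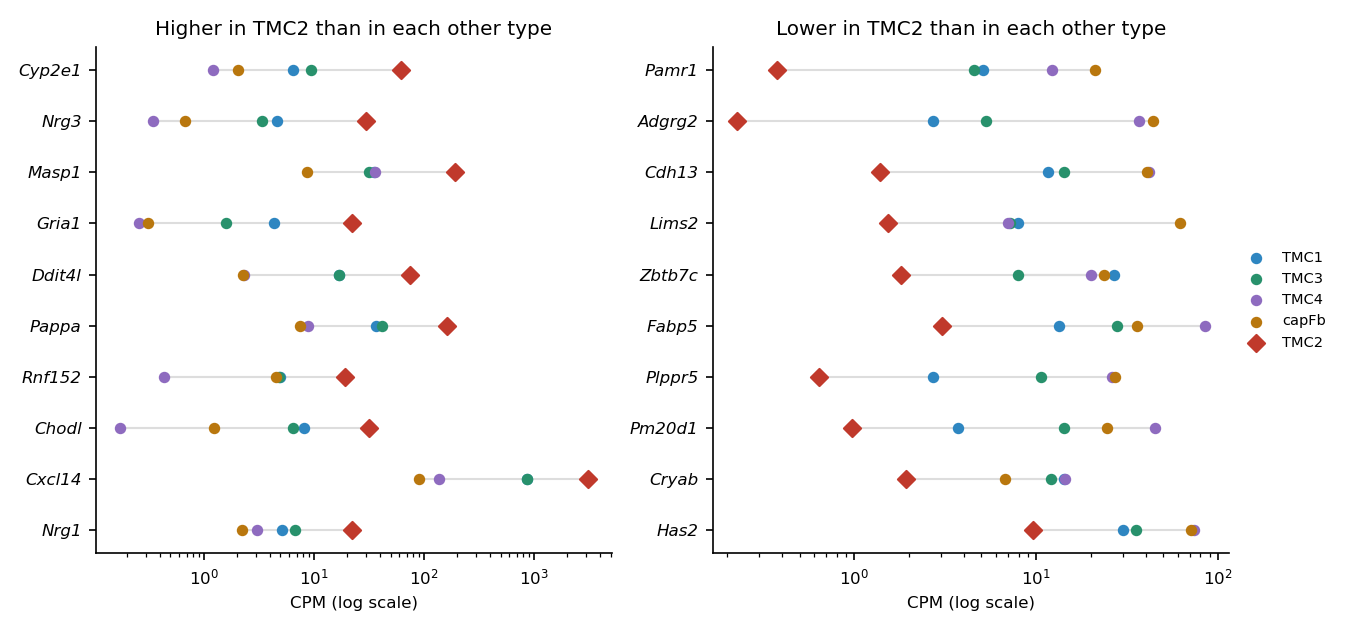
Summed levels in CPM on log axes for the 10 genes with the largest lead of TMC2 (left) and the 10 with the lowest relative level (right), 1 row per gene, with a red diamond for TMC2 and circles for the 4 other types. TMC1 and TMC3 lie nearest to TMC2 in most rows on the left, and all 10 diamonds on the right lie at 9.59 CPM or less.

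Gene lists of pathways were then read for what else TMC2 cells carried. Counts in them are to be set beside those over all 11072 genes, of which 1.2% were called higher and 1.01% lower, 15.5% had their highest level in TMC2 and 14.97% their lowest. With these shares, a list without a called gene is no result about its members. Of 9 BMP ligand genes that passed the filter, 2 were higher in TMC2, the label marker Bmp4 and Bmp5, and 6 had their highest level there. Bmp5 was at 38.1 CPM against 17.2 in TMC3, 11.5 in TMC1, 5.80 in TMC4 and 1.73 in capFb, a lead of 2.21-fold. Bmp7 was instead highest in capFb, at 107 CPM against 14.3 in TMC2. None of 6 receptor genes was called, and Bmpr1a and Bmpr2 were at 90.3 and 207 CPM in TMC2, below TMC4 at 136 and 233. None of 10 antagonist genes was called either, although Smoc2 was at 912 CPM in TMC2 and 723 in TMC1, and Fst, which traps activins and some BMPs, was at 280.4 in TMC2 and 443 in TMC1. None of 7 target genes was called or highest in TMC2. The 10 listed target genes summed to 354 CPM in TMC2, below TMC1 at 410 and TMC3 at 384 and above TMC4 at 242 and capFb at 192. Id1 was at 10.7 CPM in TMC2 and 21.3 in TMC1, and Id3 was at 211 in TMC2 and 212 in TMC1.

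Among the FGF ligands, 1 of 6 was called. Fgf1 was at 185 CPM in TMC2, 118 in TMC1, 97.0 in TMC4, 81.1 in TMC3 and 34.2 in capFb, a lead of 1.56-fold. Fgf7 and Fgf10, whose proteins bind the epithelial receptor FGFR2b, were also at their highest in TMC2 without reaching the threshold. Fgf10 was at 180.5 CPM in TMC2, 127 in TMC1, 64.2 in TMC3, 48.8 in capFb and 4.50 in TMC4, and Fgf7 at 127 in TMC2, 109 in TMC3 and 86.9 in TMC1. Fgf10 was thus nearly absent from TMC4, and Fgf7 was more even over the types. Of 10 receptor and feedback genes, Spry4, an inhibitor induced by FGF signals, was called at 60.6 CPM and 1.52-fold above TMC1. Spry1 was at 296 CPM against 228 in TMC3, and Etv5, a transcription factor downstream of FGF, at 27.2 against 18.8 in TMC1. The receptor Fgfr4 went the other way, at 0.412 CPM in TMC2 and 40.6 in TMC4.

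In the Wnt pathway 1 of 6 ligand and R-spondin genes was called, Rspo3, an enhancer of Wnt signals. It was at 45.2 CPM in TMC2, 28.3 in TMC3, 20.1 in TMC4, 17.2 in TMC1 and 13.6 in capFb. None of 8 antagonist genes was called, but Sfrp1, which binds Wnt proteins, came close with 1789 CPM in TMC2 and 1202 in TMC1, a lead of 1.49-fold, and only 27.3 in TMC4. Of 6 target genes, none was called and 3 were highest in TMC2, against 15.5% of all genes. Axin2 was at 85.7 CPM against 58.2 in TMC1, and Lgr5 at 20.3 against 13.5. Nkd2 was instead highest in TMC4, at 102.8 CPM against 64.45 in TMC2. The 10 listed target genes summed to 269 CPM in TMC2, below TMC4 at 291 and above TMC3 at 228, TMC1 at 174 and capFb at 97.9. Wnt2, by contrast, belonged to capFb, at 81.9 CPM there and 1 UMI in TMC2.

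Of 10 genes of the lectin and classical complement list that passed the filter, only Masp1 was called. C1r and C1s, the proteases of the classical branch, were at 2286 and 2183 CPM in TMC2, 1.04 and 1.06 times the next type. C7, part of the membrane attack complex, was at 10851 CPM in TMC2, 9284 in TMC1, 6731 in TMC3, 4725 in TMC4 and 3047 in capFb. C2 was lowest in TMC2, at 241 CPM against 359 in capFb and 959 in TMC4. Mbl1 and Mbl2, lectins that carry MASP1, had no UMI in TMC2 cells, which allows up to 3 UMIs in 26685773. C4a and C4b are near-identical genes whose reads the counting may have split, so their levels of 1759 and 2263 CPM are uncertain. Cfb, of the alternative branch, was at 796 CPM in TMC2 and 1196 in TMC1.

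Of the genes that passed the filter, 2 of 11 in the retinoic acid list, 1 of 6 in the PDGF list and 1 of 14 in the TGF-beta list were called higher, against 1.2% of all genes, and none was called lower. The median log2 ratio of TMC2 to the mean of the other types was 0.23, -0.11 and 0.12 in these lists and -0.04 over all genes. Crabp1, a carrier of retinoic acid, was at 294 CPM in TMC2, 101 in TMC1, 36.0 in TMC3, 11.5 in capFb and 2.42 in TMC4. Its lead of 2.92-fold (2.76 to 3.09) rested on 40.5% of the cells, against 1.46% in the thymocyte cluster, both at own depth. Aldh1a1, which makes retinoic acid, was called as well at 20.05 CPM and 1.63-fold, while Aldh1a2 and Aldh1a3 were highest in capFb. Pdgfd, a ligand of PDGF receptors, was at 245 CPM in TMC2, 144 in capFb, 129 in TMC1, 68.5 in TMC3 and 5.97 in TMC4. Tgfbi, a matrix protein induced by TGF-beta, was at 209 CPM against 112 in TMC1, but the Tgfb1, Tgfb2 and Tgfb3 ligands had no lead in TMC2.

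Chemokine genes differed widely between TMC2 and TMC4, with a sum of 5796 CPM in TMC2 and 38709 in TMC4. Of 16 that passed the filter, 3 were higher in TMC2: Cxcl14, Cxcl13 and Ccl11. Cxcl13, which attracts B cells, was at 456 CPM in TMC2, 243 in TMC1, 75.9 in capFb, 57.0 in TMC3 and 12.6 in TMC4. Ccl11, or eotaxin, was at 102 CPM against 62.9 in TMC1, with a UMI in 15.5% of TMC2 cells. The CCR7 ligands Ccl19 and Ccl21 showed the opposite order, at 78.3 and 106 CPM in TMC2 against 13615 and 22085 in TMC4. Ccl21 had a UMI in 51.5% of TMC2 cells and in 47.0% of cells of the shallower thymocyte cluster, both at own depth. These shares therefore do not show whether Ccl21 in TMC2 exceeds background. Within TMC2, 4 cells with 20 or more Ccl21 UMIs held 11.6% of that gene's UMIs. Il7, a survival factor for thymocytes, was likewise low in TMC2, at 21.7 CPM against 193 in TMC4 and 90.3 in TMC3. Cxcl12 was at 1124 CPM in TMC2 and 987 in TMC3, the next type.

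Of 24 collagen genes, 6 were higher in TMC2, against 1.2% of all genes, and none was lower, while the median log2 ratio of the list was -0.27. These were Col6a6, the network collagens Col8a1 and Col8a2, the minor fibrillar collagen Col11a1, Col15a1 of the basement membrane zone, and the membrane collagen Col23a1. Col15a1 was at 880.4 CPM in TMC2, 558 in TMC1, 468 in TMC3, 73.0 in TMC4 and 62.0 in capFb. Col6a6 was at 771 CPM in TMC2, 455 in TMC1, 269 in TMC3, 99.6 in capFb and 25.5 in TMC4. Col1a1 was not called and had its highest level in capFb. It was at 2745 CPM in TMC2, 7465 in TMC1 and 13156 in capFb, but at 1796 in TMC3 and 757 in TMC4. None of 18 elastic fibre genes was called, and Fbn1, the fibrillin of microfibrils, was lowest in TMC2 at 494 CPM against 6650 in capFb. Dcn, the small proteoglycan decorin, was highest in TMC2 at 21263 CPM, 1.25 times TMC1. Mmp11, a metalloprotease gene, was called at 58.0 CPM and 1.81-fold above TMC3, and Mmp16 was lower, at 2.40 CPM against 4.06 in TMC1 and 108 in TMC4.

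Of 22 axon guidance genes, 2 were higher in TMC2 and 2 lower, against 1.2% and 1.01% of all genes. Robo2, a receptor for Slit proteins, was at 137 CPM in TMC2 and 68.9 in TMC1, and its ligand gene Slit2 was at 378 in TMC2 and 269 in TMC3. Epha7 was called at 16.4 CPM, while Sema3b and Efnb1 were lower in TMC2 than in each other type. Abca8a, a lipid transporter, was the 1 called of 8 genes in the list of neuropeptides and channels, at 2474 CPM in TMC2, 1632 in TMC3 and 1462 in TMC1. None of 39 mesenchymal transcription factor genes that passed the filter was called in either direction, and their median log2 ratio was -0.15. Tcf4 was at 1059.5 CPM in TMC2 and 914.5 in TMC3, and Zeb1 at 929.7 in TMC2 and 872 in capFb.

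**Figure D3:**
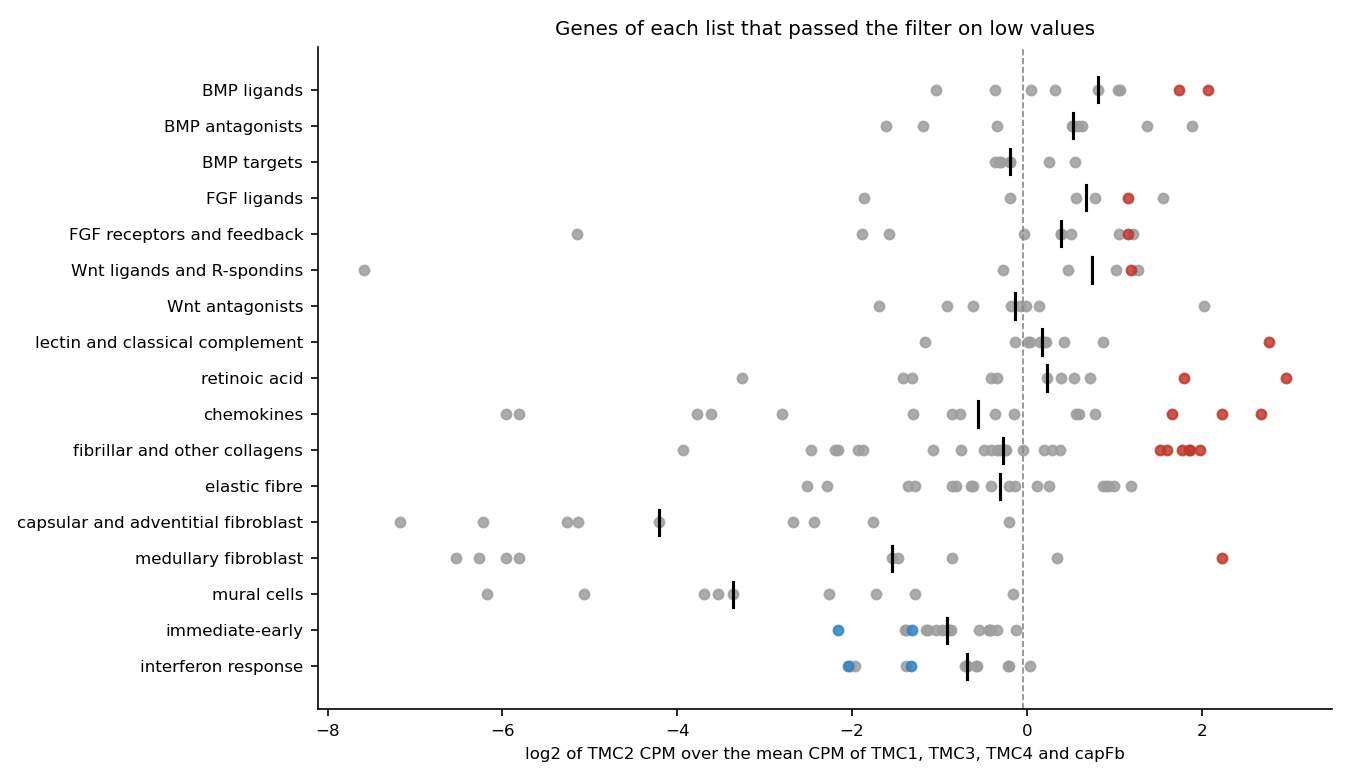
Each point is 1 gene that passed the filter, placed by the log2 ratio of its TMC2 level to the mean of the 4 other types (horizontal axis) in the row of its list, red for genes called higher, blue for lower, with a black bar at the list median and a dashed line at the median of all genes, -0.04. The BMP, FGF and Wnt ligand lists lie to the right of the dashed line. The median of the chemokine list lies to its left at -0.56, and the capsular, medullary and mural lists far to the left. A type with very high levels can set the mean of the 4 others. The medullary list summed to 40073 CPM in TMC4, 1599 in TMC2 and 1519 in TMC1.

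Lists of other cell types differed in how low they were in TMC2. Capsular and adventitial fibroblast genes had a median log2 ratio of -4.21 in TMC2 against the mean of the other types, with Pi16 at 39.2 CPM in TMC2 and 4894 in capFb, and Sema3d at 0.45 and 123.3. The list summed to 2099 CPM in TMC2, 3757.5 in TMC1, 1558 in TMC3, 231 in TMC4 and 13688 in capFb. Of 9 genes that passed the filter, 2 were lowest in TMC2, so the low ratio is mainly a contrast with capFb. Mural genes such as Tagln were at 19.6 CPM in TMC2 and 4114 in TMC4, and summed to 523 CPM, of which Abcc9 gave 345. The 10 thymocyte genes summed to 9.59 CPM in TMC2 and to 7.73 to 11.6 CPM in the 4 other types. The 10 myeloid genes summed to 12.6 CPM in TMC2 and to 9.47 to 29.6 CPM in the others. The B cell list summed to 852 CPM in TMC2, of which Ebf1, a transcription factor also expressed in mesenchyme, gave 849, and Ms4a1 and Cd22 had no UMI. Ebf1 was higher in each of the 4 other types, from 948 to 2310.4 CPM. The Schwann and neural list summed to 29.2 CPM in TMC2, above TMC3 at 18.6 and TMC4 at 23.7 and below capFb at 35.8 and TMC1 at 96.8. Most of it was S100b at 24.7 CPM, and Sox10, Foxd3 and Erbb3 had no UMI in TMC2. Epithelial genes were about even over the types, at 55.4 CPM in TMC2 and 44.8 to 60.6 in the others, and mesothelial genes summed to 39.5 CPM in TMC2 and 15.0 to 116 in the others. Endothelial genes summed to 48.5 CPM in TMC2, 46.0 in TMC1, 47.9 in TMC3, 29.6 in TMC4 and 205 in capFb, with Cdh5 at 1.16 and Kdr at 0.937. The main member of that sum was Emcn, a sialomucin of endothelium, which was called higher in TMC2 at 26.5 CPM against 13.4 in TMC3 and 910.2 in the endothelial cluster Endo-1. In TMC2, 10 barcodes were also found in the thymocyte library, out of 38 shared by the libraries, and 4 cells had 3 or more thymocyte UMIs. Doublets were not removed here, and their part in these values was not tested.

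Genes of acute response had a median log2 ratio of -0.91 in TMC2. Of 18 immediate-early genes, which rise within minutes of a stimulus or of tissue digestion, 2 were lower than in each other type, against 1.01% of all genes, 8 had their lowest level in TMC2, against 14.97%, and none its highest, against 15.5%. Atf3 was at 26.0 CPM in TMC2, 59.1 in TMC1, 81.5 in TMC4, 128 in capFb and 196 in TMC3. Jun was at 269 CPM in TMC2 and 421 in TMC1, the next lowest. The 5 types shared 1 digestion, and the part of cell handling in these levels was not tested.

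Variation among the TMC2 cells was measured as the variance of a gene's UMIs over that expected from depth and counting alone, for 8342 genes with a UMI in at least 10% of cells. The median ratio was 1.13 and 632 genes exceeded 2. This ratio grows with the UMIs of a gene per cell, on average 103 for Mgp and 1.65 for Masp1. A value near 1 in a sparse gene therefore does not show that it varied little between cells. The label markers lay above the median, with 1.91 for Pdgfra, 2.86 for Bmp4 and 3.44 for Masp1. By this ratio, which favours abundant genes, the 10 most variable genes were Mgp, Obp3, Apoe, Col3a1, Gsn, Col1a1, Cfb, C7, Ptn and Igfbp3, from 114 for Mgp to 29.4 for Igfbp3. Mgp, an inhibitor of matrix calcification, ranged from 0 to 1524 UMIs with a median of 65. Col3a1 had a median of 51 UMIs and a highest value of 962. For these abundant genes nearly all cells held RNA, and the spread was one of amount.

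Obp3 behaved differently. It encodes a lipocalin of the alpha-2u-globulin family, small proteins that carry odorants and other hydrophobic ligands. No UMI was found in 44.6% of TMC2 cells, the median was 1 and the highest value 591, and the tenth of cells with most Obp3 held 71.8% of its UMIs. Its summed level was 1545 CPM in TMC2, 611 in TMC1, 226 in TMC3, 58.4 in capFb and 11.2 in TMC4, a lead of 2.53-fold. The related Mup5 followed the same order at 10.9, 3.99, 1.51, 0.309 and 0 CPM, and reads shared between such near-identical genes make the split uncertain. Obp3 also moved with depth. With the cells in 4 equal groups by depth, it was at 777 CPM in the shallowest 770 cells, 1335 and 1370.0 in the next and 2125 in the deepest, whereas Bmp4 stayed between 289.6 and 295 CPM and Masp1 between 178 and 198.

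Pairs among the 10 variable genes were compared over 3069 TMC2 cells thinned to 2000 UMIs, which share 1 library. Pearson's r was 0.65 for Col3a1 and Col1a1, 0.36 for Col3a1 and Gsn, and 0.31 for Gsn and Col1a1. C7 ran against Mgp with r of -0.30 and against Gsn with -0.21. The fibrillar collagen genes thus varied together between cells, apart from C7. Cfb had no UMI in 33.4% of cells and a highest value of 271, and Igfbp3 none in 37.2% and a highest value of 286.

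**Figure D4:**
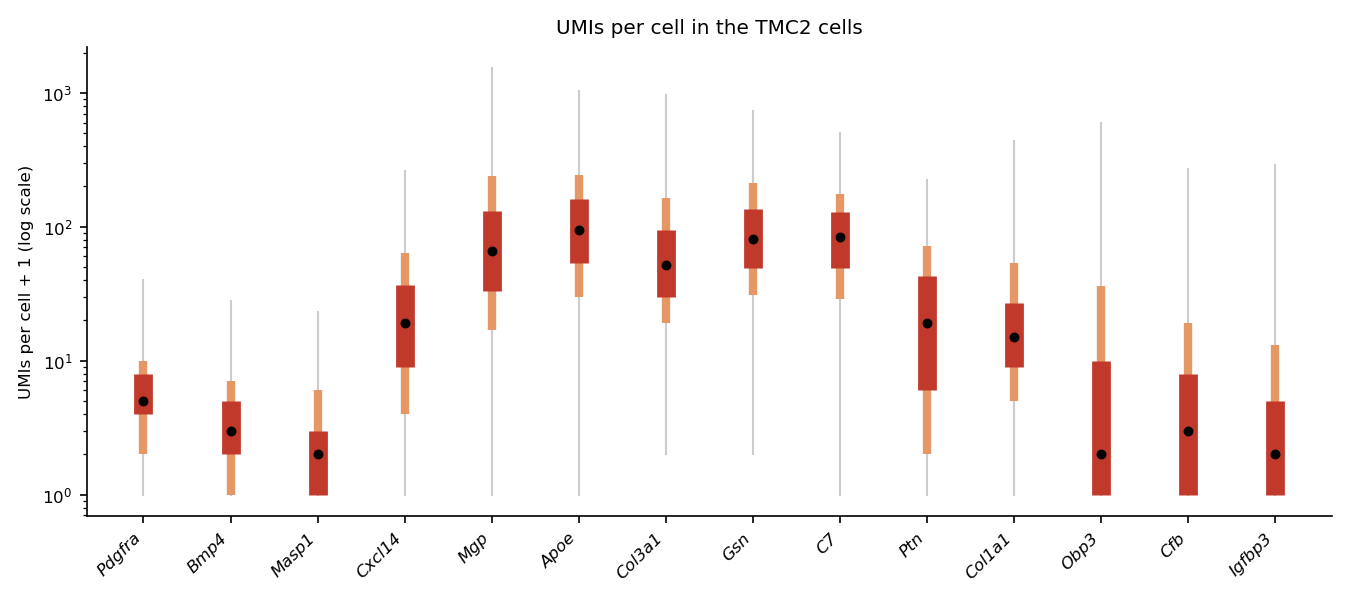
UMIs per TMC2 cell plus 1 on a log axis for the 3 label markers, Cxcl14 and the 10 most variable genes, with a dot at the median, a thick bar from the first to the third quartile, a thin orange bar from the 10th to the 90th percentile and a grey line over the full range. Obp3 reaches 591 UMIs although its median is 1, while the label markers stay within 39 UMIs.

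In the section, the authors gave each 10 µm bin up to 3 cell-type labels by RCTD, a method that splits the RNA of a bin over reference profiles, and placed each bin in a region named capsular, cortex, mECA or mEFA. A bin can hold parts of several cells. TMC2 was the first label in 45 of 592087 labelled bins, of which 42 were capsular, 3 cortical and none in mECA or mEFA. The capsular share was 0.034% and the cortical share 0.000733%, a ratio of 46.4 (14.4 to 150), which rests on the 3 cortical bins. Counting a bin with TMC2 as any of its labels gave 1417 bins, 1011 of them capsular, 359 cortical, 21 in mECA and 26 in mEFA. The ratio of capsular to cortical share was then 9.34 (8.28 to 10.5). The weight given to TMC2 in these bins was small, with a median of 15.9%, and their median depth was 393 UMIs against 326 over all bins.

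By the same count the other types fell on either side. The capsular to cortical ratio was 16.8 for capFb and 15.8 for TMC1, both with intervals above that of TMC2, and 3.15 for TMC3 and 1.57 for TMC4, both below it. In mECA, with 21 bins, TMC2 was at 0.596 times its cortical share (0.384 to 0.925), and in mEFA, with 26 bins, at 1.53 times (1.03 to 2.28). In segmented cell bins these ratios were 0.965 (0.661 to 1.41) and 2.61 (1.85 to 3.67), so the lower share in mECA was not seen there. TMC1 and capFb had ratios near those of TMC2 in mECA, 0.757 and 0.533, and TMC4 had 6.58. Of the TMC2 bins, 52.9% lay inside the outline of the capsule drawn by the authors, an area that held 2.67% of all bins, against 59.9% for TMC1, 62.4% for capFb, 26.7% for TMC3 and 7.13% for TMC4. The TMC2 label thus had an outer position, although the capsular fibroblast genes Pi16, Dpp4 and Sema3d were far lower in TMC2 cells than in capFb cells. Adjacent bins are not independent, and the intervals do not allow for that.

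**Figure D5:**
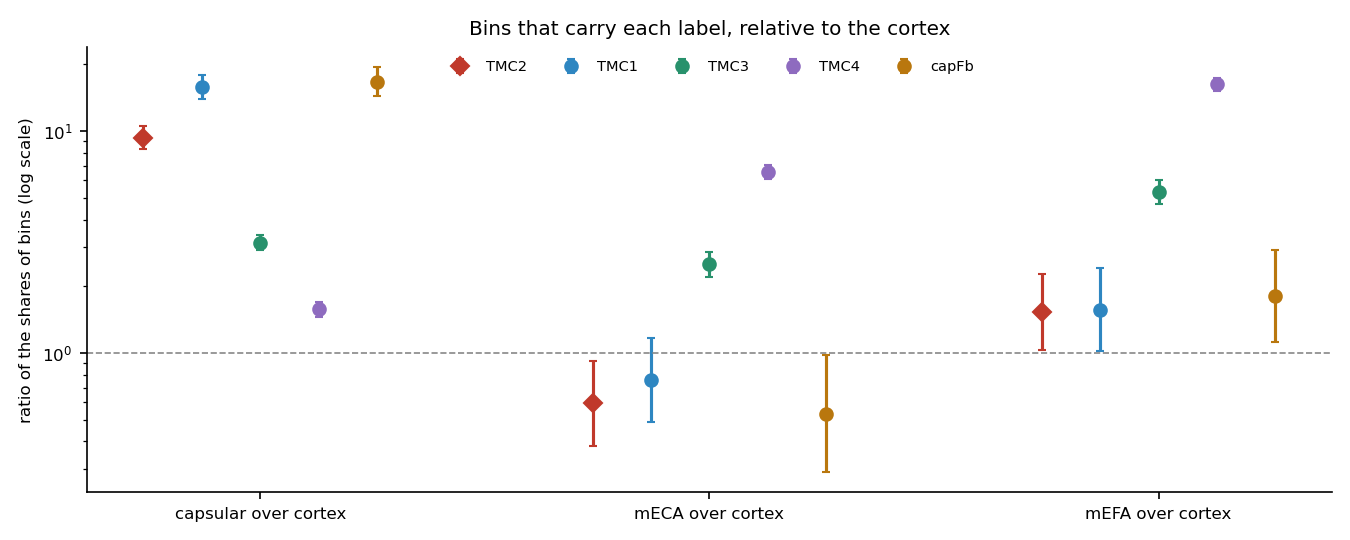
Share of bins with each label as any of its labels in the capsular, mECA and mEFA regions, divided by the share in the cortex (log axis), with 95% log-normal intervals and a dashed line at 1. TMC2, the red diamond, lies at 9.34 in the capsular region, below TMC1 and capFb and above TMC3 and TMC4.

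The label most often found beside TMC2 in a bin was DN, a name in common use for thymocytes without CD4 and CD8, in 51.3% of the bins, followed by DP in 21.7%. TMC1 and capFb had DN in 49.9% and 45.8% of their bins, TMC3 in 40.0% and TMC4 in 25.7%. The share of DN over all bins or all capsular bins was not computed, so these values show no association of DN with TMC2. Cortical TMC2 bins were set against vessels too. Of the 359, 60.4% (55.2 to 65.5) lay within 30 µm of another bin with an endothelial or mural label, against 35.8% of all cortical bins. The other types had 64.5% for TMC1, 71.2% for TMC3, 62.0% for TMC4 and 54.8% for capFb, so nearness to vessels was common to the 5 types and TMC2 was within their range.

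The weight of TMC2 among the mesenchymal types differed between the 2 kinds of data. Of 8216 cells of the 5 types in suspension, 37.5% were TMC2 (36.4 to 38.5), the largest share. Of 686 bins in the section whose first label was 1 of the 5 types, 6.56% were TMC2 (4.82 to 8.68) and 7.43% capFb (5.59 to 9.66), and TMC3 and TMC4 had 38.8% and 36.3%. By any label TMC2 had 11.2% and capFb 10.3% of 12602 label uses, and in segmented cell bins 5.55% and 4.64% of 1099 first labels. Digestion, sorting, the cut of the section and the assignment of labels all differ between the measurements, and their part in this difference was not tested.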

How the data were processed

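UMI counts per gene and barcode were deposited by the authors for the stromal library, made with Cell Ranger 8.0.0 on build mRatBN7.2, with Seurat 5.3.0 for later steps, per the submitters' processing notes. The deposited table of cells gives UMI and gene counts, the percent of mitochondrial UMIs, a cluster name and map coordinates, a score with no unit from the authors that was not used. For the section the authors deposited labels, regions, counts per bin and RCTD weights, which are fractions. Coordinates were converted at a nominal 0.5 µm per unit. The median UMIs per cell were 8269.5 in TMC2, 9749 in TMC1, 8143 in TMC3, 8717 in TMC4 and 11378.5 in capFb.

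Cells of the stromal library were grouped by the authors' cluster name, with their filters as deposited. CPM came from the UMIs summed over the cells of a type, with exact Poisson intervals for levels and log-normal ones for ratios. A level under 3 UMIs was set to 3 UMIs in ratios. Genes named in the text come from lists of pathway and cell type genes, from the 10 genes with the largest and the 10 with the smallest relative level in TMC2 (at least 100 UMIs over the 5 types, identifiers left out), and from the 10 most variable genes. Outside these, Cyp39a1, Fndc4 and Slc2a4 are named as genes next to the 1.5-fold threshold, and Mup5 as a relative of Obp3. The members and the lists were chosen with earlier results of these data known, and genes of the clustered cells are taken as used by the authors' clustering, so cluster contrasts are descriptions. No doublet caller was run. The call rule was tested on simulated counts of 11072 genes, where it recovered 99.5% of 200 genes raised 2-fold and 96% of 200 genes lowered 2-fold, with 0 false calls. The simulated counts were Poisson draws from 1 base level shared by all types, without variation between cells. They check that the rule works as written and give no error rate for the calls in the data. Motifs were searched in RefSeq sequence of GRCr8, a build other than that of the counts. Software versions were pandas 2.3.3, SciPy 1.17.1, NumPy 2.4.6 and matplotlib 3.10.9 under Python 3.11.15, and the random seed was 7.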

Additional observations from a re-analysis of the deposited data

Results flagged for a closer look

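Masp1 was present among the 2934 barcodes of the stromal library that carry no annotation, at 23.2 CPM on 201 UMIs (20.1 to 26.6), above the 0.346 CPM that a count of 0 would allow there. It was below the 30.9 CPM of the thymocyte cluster (23.1 to 40.4). There, 52 of the 53 Masp1 UMIs lay in 16 cells that carried all 3 label genes. That cluster is therefore no clean background for this gene. Clusters outside the mesenchyme had from 1.44 CPM in Endo-1 to 49.1 in TEC-c. Whether the level of these barcodes exceeds background was not tested. The result was singled out because these barcodes enter no comparison of the report.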

How the results depend on the processing

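The counts of called genes depended on the filter on low values and on the fold. With a mean of at least 1 CPM, 234 genes were higher and 195 lower in TMC2 than in each other type, with at least 20 CPM 78 and 55, and at 2-fold 48 and 44. Pair by pair, at least 1 CPM gave 440 higher and 650 lower against TMC1, 554 and 1299 against TMC3, 1452 and 1825 against TMC4, and 1854 and 990 against capFb. At least 20 CPM gave 127 and 168, 191 and 415, 568 and 647, and 623 and 400 in that order. These filters change how many genes enter. Averaging the CPM of cells, leaving 168 mitochondrial, ribosomal and haemoglobin genes out of the totals, taking cells of at least 2000 UMIs or below the 99th percentile, thinning to 2000 UMIs, and, chosen after seeing the data, leaving out barcodes shared with the thymocyte library or cells with 3 or more thymocyte UMIs kept every count within 1.5 times. After thinning, 105 of the 133 higher and 83 of the 112 lower genes were called again.

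No result reversed. Of 140 recomputed ratios of the 20 leading genes, 127 stayed within the counting interval. Nrg1 moved furthest, to 1.61-fold after thinning. At 1000 UMIs per cell, a UMI was present in 15.8% (Masp1), 24.3% (Bmp4) and 42.6% (Pdgfra) of TMC2 cells. The capsular to cortical ratio of 46.4 was 81.2 in bins at or above the median depth, on 1 cortical bin, 67.3 and 35.6 in the left and right of the section, 38.1 for confident labels, 31.7 in cell bins, 9.34 by any label and 10.1 by the authors' merged mesenchymal label, an alternative chosen after seeing the data. The cause was not tested. Projected labels could not be used, as no cell of the 5 types has one. No paired analysis was possible because only 1 sample represents each group.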

Other observations

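Interferon-response genes had a median log2 ratio of -0.69 in TMC2 to the mean of the other types, against -0.04 over all genes. Of 13 that passed the filter, 2 were lower than in each other type, against 1.01% of all genes, 8 had their lowest level in TMC2, against 14.97%, and none had its highest there, against 15.5%. Isg15, a ubiquitin-like protein induced by interferon, was at 31.5 CPM in TMC2, 55.9 in TMC1, 78.6 in TMC3, 87.6 in capFb and 93.5 in TMC4. Irf7, a transcription factor of the same response, was at 31.9 CPM in TMC2 and 208 in TMC4. Heat shock genes had a median log2 ratio of -0.28. Of 13, 1 was called lower, the crystallin Cryab, against 1.01% of all genes. TMC2 had the lowest level for 6 of them, against 14.97%, and the highest for 0, against 15.5%. Hsp90ab1 was at 1049 CPM in TMC2 and 1058 to 1230.3 in the other types.

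None of 10 glucocorticoid-response genes was called. Hsd11b1, which regenerates active glucocorticoid, was at 779.9 CPM in TMC2, 731 in TMC3 and 846 in TMC4, but at 383 in TMC1 and 127 in capFb. Among genes of insulin-like growth factor signalling, Pappa was the 1 called of 11. Igfbp4 and Igfbp5, whose proteins PAPPA cuts, were at 932 and 63.7 CPM in TMC2, 1205 and 705 in TMC1, and 310.4 and 4366 in capFb. Igf1 was at 1269.5 CPM in TMC2 and 2565 in TMC1. The cell-cycle genes Mki67 and Top2a were at 2.92 and 1.69 CPM in TMC2.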
